A study of Sus scrofa with 36 samples.

Results

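The immediate early genes of the AP-1 and EGR families were followed in neonatal pig hearts in the gene counts of batch cd. The members were the rows of the gene table named JUN, JUNB, JUND, FOSB or EGR1. Rows named JUNB, FOSB and EGR1 were found, which makes 3 of the 9815 genes in the table. No row carried the name JUN, but 1 further row has a gene ID that a gene name table pairs with JUN, and its values are given separately. JUND was matched neither by name nor by ID and was not analysed here. The part of the table analysed covers chromosomes 1, 2, 6 and 13.

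Hearts of untreated, normally fed Yorkshire pigs were taken on postnatal days 1, 3, 7 and 28 (P1, P3, P7 and P28), and total RNA of whole heart tissue was sequenced. Batch cd holds 12 of the study's 24 pigs, 3 at each age, and no group carries a genetic change or a drug. The pigs of an age are called pig 4, pig 5 and pig 6 after the column names, so the same number at different ages does not mean the same animal. The question put to each gene was how its level differed between ages and how far that difference exceeded the spread between pigs of one age.

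Immediate early genes are transcribed within minutes of a stimulus, without new protein synthesis, and their mRNAs are short-lived. Their products JUN, JUNB and JUND pair with FOS, FOSB and related leucine zipper proteins to form AP-1, which binds DNA, whereas EGR1 is a zinc finger transcription factor switched on by the same MAP kinase and serum response factor pathways. In the heart these genes are known to respond to stretch, growth factors, ischemia and tissue handling.

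JUNB (ENSSSCG00000013735), an AP-1 subunit that can restrain the activity of JUN, lies on chromosome 2 from 66214594 to 66215637. The length listed for it, 1044 bases, equals its span and is a multiple of 3, so it is a coding length without untranslated regions. FOSB (ENSSSCG00000031616), an AP-1 subunit that pairs with the JUN proteins, lies on chromosome 6 from 51837719 to 51844531, with a length of 3797 bases. EGR1 (ENSSSCG00000014336) lies on chromosome 2 from 140441421 to 140445296, with a length of 3103 bases. All 3 are listed as protein coding, and no other row of the table overlapped them or lay within 3000 bases of them. The row matched to JUN, the founding AP-1 subunit, is ENSSSCG00000031912 on chromosome 6 from 153685682 to 153687656, which the table leaves without a name and lists as a pseudogene. A lncRNA row, ENSSSCG00000051147, overlaps it. The strand setting of the counting is not given in the sources used here, so reads of the JUN row are uncertain. Positions are those of the table, whose genome build is not named in these sources.

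Gene counts summed to between 8887176 and 14883849 per library. The 9 rows named Metazoa_SRP, which are signal recognition particle RNAs, took 7.09% to 19.7% of them. Levels are given as CPM, read counts relative to the summed counts of the tested genes of a library, scaled by edgeR's TMM factors. These sums, shares and CPM refer to the part of the table analysed, not to whole libraries. A test was run on the 5526 of the 9815 genes that reached 10 counts in no fewer than 3 libraries, which included the 3 members and the JUN row. JUNB, EGR1 and the JUN row had over 150 counts in each library, whereas FOSB ran from 5 to 186 counts. The 8 tested markers of cardiomyocytes, of 18 listed, summed to between 70227 and 93173 CPM per library, so that heart muscle RNA was plentiful in all of them.

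**Figure D1:**
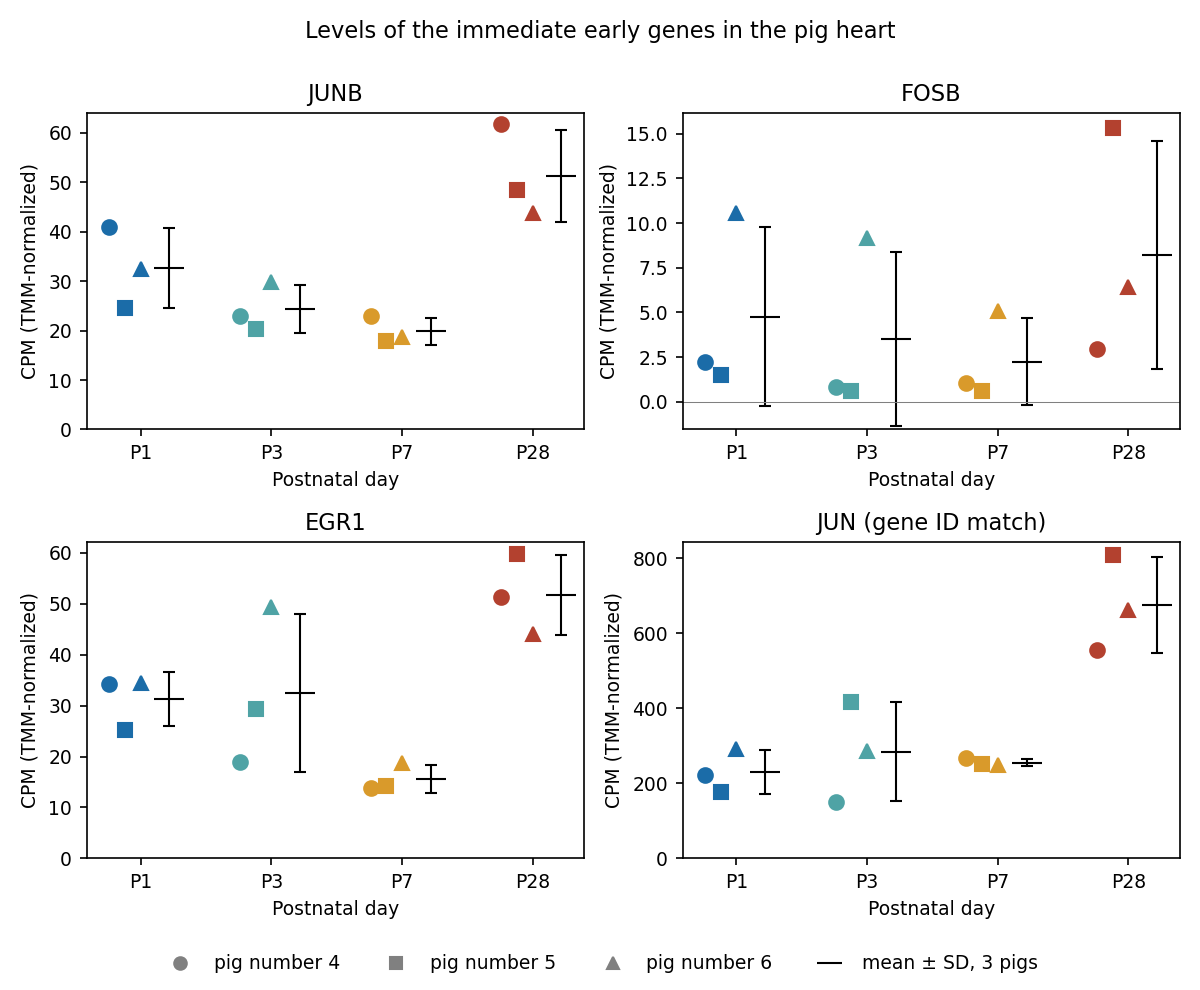
Level of each gene in CPM (vertical axis, scaled by TMM factors) against postnatal age, with 1 point per pig, its shape giving the pig number, and the mean ± SD of 3 pigs beside the points. JUNB, EGR1 and the row matched to JUN have their highest means at P28, and FOSB has 1 pig far above the others at P1, P3 and P7.

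JUNB was highest at P28 and lowest at P7. At P1, the levels of JUNB in pigs 4, 5 and 6 were 41.0, 24.6 and 32.4 CPM, and at P3 they were 23.0, 20.3 and 29.8 CPM. At P7 they were 22.9, 17.9 and 18.7 CPM, and at P28 they were 61.7, 48.5 and 43.7 CPM. Each P28 pig thus stood above all 9 younger pigs, although the lowest of them exceeded the highest younger pig, P1 pig 4, by little. Among all genes tested, 8.52% had all 3 P28 libraries above the 9 others. The means ± SD (n = 3) were 32.7 ± 8.18, 24.4 ± 4.91, 19.8 ± 2.69 and 51.3 ± 9.31 CPM at P1, P3, P7 and P28. Against P1 alone, all P28 libraries were higher for 22.5% of all genes. All 3 P1 pigs also lay above all 3 P7 pigs, which held for 15.2% of all genes.

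EGR1, which couples growth factor and stretch signals to transcription, was lowest at P7 as well. At P1, the levels of EGR1 in pigs 4, 5 and 6 were 34.3, 25.2 and 34.4 CPM, and at P3 they were 18.8, 29.3 and 49.5 CPM. At P7 they were 13.8, 14.2 and 18.8 CPM, and at P28 they were 51.3, 59.8 and 44.0 CPM. P3 was the age with the widest spread, and its pig 6 lay within the range of P28. The means ± SD (n = 3) were 31.3 ± 5.30, 32.5 ± 15.6, 15.6 ± 2.77 and 51.7 ± 7.87 CPM. All 3 P1 pigs lay above all 3 P7 pigs, which held for 15.2% of all genes. All 3 P28 pigs also lay above all 3 P7 pigs, as was the case for 23.7% of all genes. P3 and P7 did not overlap either (10.7% of all genes had all P3 libraries above all P7), but P3 pig 4 and P7 pig 6 were almost equal, at 18.84 and 18.81 CPM.

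FOSB was low and varied more between pigs of one age than between ages. At P1, the levels of FOSB in pigs 4, 5 and 6 were 2.24, 1.51 and 10.5 CPM, and at P3 they were 0.831, 0.591 and 9.14 CPM. At P7 they were 1.08, 0.598 and 5.07 CPM, and at P28 they were 2.97, 15.3 and 6.40 CPM. Pig 6 was the high one at P1, P3 and P7, and pig 5 at P28, so that all ages overlapped. Within an age, the highest pig exceeded the lowest 6.97-fold at P1, 15.5-fold at P3, 8.48-fold at P7 and 5.16-fold at P28. The means ± SD (n = 3) were 4.77 ± 5.02, 3.52 ± 4.87, 2.25 ± 2.45 and 8.23 ± 6.37 CPM. At 5 to 12 counts, the lowest 4 libraries are measured with low precision.

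The row matched to JUN was the most abundant of these genes. At P1, its levels in pigs 4, 5 and 6 were 221, 176 and 293 CPM, and at P3 they were 151, 415 and 285 CPM. At P7 they were 266, 251 and 248 CPM, and at P28 they were 555, 809.9 and 663 CPM. All 3 P28 pigs lay above the 9 younger pigs, as was so for 8.52% of all genes, and the ages P1, P3 and P7 overlapped. The means ± SD (n = 3) were 230.0 ± 58.7, 284 ± 132, 255 ± 9.91 and 676 ± 128 CPM.

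Divided by listed gene length, the order of the levels was the same at all 4 ages. At P28 the row matched to JUN had a mean of 355 CPM per kb, JUNB 49.2, EGR1 16.7 and FOSB 2.17. At P7 the means were 134, 19.0, 5.03 and 0.592 CPM per kb. The length of JUNB lacks untranslated regions, so its level per kb is not on quite the same footing as those of FOSB and EGR1. The members moved on different scales, since from lowest to highest library JUNB ranged 3.45-fold, EGR1 4.32-fold, the JUN row 5.35-fold and FOSB 25.9-fold.

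Levels over the 4 ages were compared with edgeR's quasi-likelihood test, with p-values adjusted over all 5526 genes by the Benjamini-Hochberg method. JUNB (adjusted p = 0.00352) and EGR1 (adjusted p = 0.00814) differed between ages, as 21.4% of all genes did, and so did the row matched to JUN (adjusted p = 0.00516). FOSB did not pass (adjusted p = 0.480). Age accounted for 83.3% of the variance of log2 CPM of JUNB, 77.4% of that of EGR1 and 75.8% of that of the JUN row, but for 28.9% of that of FOSB. In bulk tissue, fewer cells of a type and less RNA per cell cannot be told apart.

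Between P7 and P28, JUNB and EGR1 rose. A gene was called as changed when its p, before adjustment, was no higher than 0.05 and its log2 fold change exceeded 0.5 in size. The p-values printed are adjusted over all genes tested. By the calling rule 2 of the 3 members were called, against 25.1% of all genes in either direction, 11.1% higher at P28 and 14% lower. JUNB had a log2 fold change of 1.37 (SE 0.22, edgeR adjusted p = 0.00151), a 2.59-fold difference. EGR1 had a log2 fold change of 1.73 (SE 0.29, edgeR adjusted p = 0.00209), a 3.31-fold difference. The row matched to JUN rose by 1.41 on the log2 scale (SE 0.29, edgeR adjusted p = 0.00593). At an adjusted p under 0.05, 18.8% of all genes passed. FOSB had the largest estimate, 1.88, with a 95% interval of -0.43 to 4.19 (edgeR adjusted p = 0.247), and was not called. Without P7 pig 6, the estimate for FOSB was 3.30 and met the calling rule (edgeR adjusted p = 0.119). Across the 12 fits with 1 library left out, this estimate ranged from 1.07 to 3.30. The calls of JUNB, EGR1 and the JUN row held with each of the 12 libraries left out in turn.

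From P1 to P7, JUNB and EGR1 fell. Of the 3 members 2 were called, against 11.7% of all genes (7.65% higher and 4.07% lower at P7). JUNB fell by 0.72 on the log2 scale (SE 0.22, edgeR adjusted p = 0.0985). EGR1 fell by 1.00 on the log2 scale (SE 0.29, edgeR adjusted p = 0.0881), from 31.3 to 15.6 CPM. Neither passed an adjusted p under 0.05, which 2.01% of all genes did, but both met the calling rule with each library left out in turn. FOSB had a log2 fold change of -1.08 (SE 1.07, edgeR adjusted p = 0.709) and the JUN row one of 0.15 (SE 0.29, edgeR adjusted p = 0.878), so neither was called. Whether the JUN row differed from JUNB and EGR1 in this interval was not tested.

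Between P1 and P3 the test separated none of the members. No member was called, against 10.6% of all genes (6.95% higher and 3.64% lower at P3), and 0.0543% of all genes passed an adjusted p under 0.05. JUNB had a log2 fold change of -0.42 (SE 0.22, edgeR adjusted p = 0.373), EGR1 of 0.06 (edgeR adjusted p = 0.931) and FOSB of -0.38 with a 95% interval of -2.63 to 1.87. Leaving out P1 pig 5 or P3 pig 6 brought JUNB past the calling rule, at -0.59 (edgeR adjusted p = 0.359) and -0.58 (edgeR adjusted p = 0.190). Without P3 pig 6, FOSB also met the rule, at -2.69 (edgeR adjusted p = 0.225). The JUN row had a log2 fold change of 0.30 (edgeR adjusted p = 0.608), which became 0.60 without P3 pig 4 and then met the rule (edgeR adjusted p = 0.150).

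Between P3 and P7, EGR1 alone was called among the 3 members, against 13% of all genes (6.51% higher and 6.46% lower at P7). It fell by 1.06 on the log2 scale (SE 0.29, edgeR adjusted p = 0.0817), and this call held with each library left out, but the log2 fold change ranged from -1.35 without P3 pig 4 (edgeR adjusted p = 0.0181) to -0.64 without P3 pig 6 (edgeR adjusted p = 0.150). Of all genes, 2.21% passed once p-values were adjusted. JUNB had a log2 fold change of -0.30 (edgeR adjusted p = 0.473) and FOSB of -0.70 (edgeR adjusted p = 0.775). The JUN row had one of -0.15 (edgeR adjusted p = 0.821).

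Between P1 and P28, JUNB and EGR1 were called as higher at P28. These were 2 of the 3 members, against 23.1% of all genes (11% higher and 12.1% lower at P28), and 15.3% of all genes passed an adjusted p under 0.05, which neither member did. JUNB rose by 0.65 on the log2 scale (SE 0.21, edgeR adjusted p = 0.0576) and EGR1 by 0.72 (SE 0.28, edgeR adjusted p = 0.104). Both calls depended on which library was left out, and the log2 fold change ranged from 0.48 to 0.85 for JUNB and from 0.58 to 0.83 for EGR1. JUNB was lost without P1 pig 5 (0.48, edgeR adjusted p = 0.210) and without P28 pig 4 (0.49, edgeR adjusted p = 0.203). EGR1 was lost without P1 pig 5 (0.58, edgeR adjusted p = 0.290) and without P28 pig 5 (0.60, edgeR adjusted p = 0.264), with log2 fold changes that stayed over 0.5. In other fits they passed an adjusted p under 0.05, such as JUNB without P1 pig 4 (0.85, edgeR adjusted p = 0.0301) and EGR1 without P3 pig 6 (0.72, edgeR adjusted p = 0.0369). The row matched to JUN rose by 1.56 on the log2 scale (SE 0.30, edgeR adjusted p = 0.00478), 2.94-fold, in the full set and with each library left out. FOSB was at 0.80, with a 95% interval of -1.40 to 2.99.

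Between P3 and P28, JUNB rose by 1.07 on the log2 scale (SE 0.22, edgeR adjusted p = 0.00679), and its groups did not overlap, as was so for 15.6% of all genes with all P28 libraries above all P3. EGR1 met the calling rule at 0.67 (SE 0.28, edgeR adjusted p = 0.127), with overlapping groups. These 2 of the 3 members compare with 24% of all genes called in either direction (10.3% higher and 13.7% lower at P28) and 16.5% at an adjusted p under 0.05. The call of EGR1 was lost without P3 pig 4 (0.39, edgeR adjusted p = 0.272), P3 pig 5 (0.59, edgeR adjusted p = 0.228), P28 pig 4 (0.67, edgeR adjusted p = 0.219) or P28 pig 5 (0.55, edgeR adjusted p = 0.291). Without P3 pig 6, the highest of its age, EGR1 was at 1.09 and passed an adjusted p under 0.05 (edgeR adjusted p = 0.0181). FOSB, at 1.18, was not called (edgeR adjusted p = 0.459), but without P3 pig 6 it met the rule at 3.48 (edgeR adjusted p = 0.0794). Across the 12 fits with 1 library left out, FOSB ranged from 0.36 to 3.48. The row matched to JUN rose by 1.25 on the log2 scale (SE 0.29, edgeR adjusted p = 0.0132). The comparisons with P28 use the same 3 libraries of that age.

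When P1 was set against the mean of the 3 later ages, no member was called, against 9.41% of all genes (4.89% higher and 4.52% lower later) and 2.46% at an adjusted p under 0.05. JUNB had a log2 fold change of -0.16 (edgeR adjusted p = 0.678), EGR1 of -0.07 (edgeR adjusted p = 0.906) and FOSB of -0.22 (edgeR adjusted p = 0.922). For JUNB and EGR1 this mean joins an age below P1 with an age above it. The JUN row was called as higher later, at 0.67 (SE 0.25, edgeR adjusted p = 0.190), and lost the call without P1 pig 4 (0.65, edgeR adjusted p = 0.393) or P1 pig 5 (0.50, edgeR adjusted p = 0.496), with log2 fold changes that stayed over 0.5. All 3 members had their lowest mean at P7 and their highest at P28, an order that 10.3% of all genes shared. The row matched to JUN had its lowest mean at P1.

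**Figure D2:**
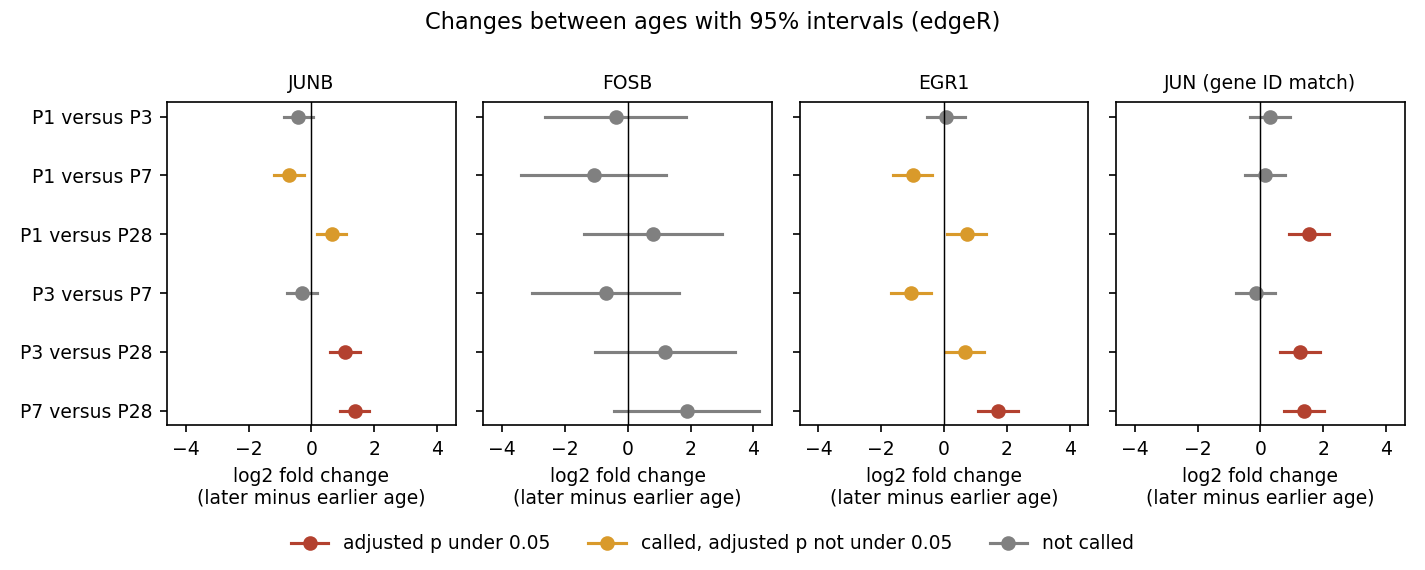
Log2 fold change of each gene between ages (horizontal axis, later minus earlier age), with 95% intervals from edgeR, 3 pigs per age. Intervals of FOSB span several log2 units and cross 0 in each comparison, whereas those of JUNB, EGR1 and the row matched to JUN lie above 0 between P7 and P28.

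Markers of some cell types also differed between P7 and P28. The 8 tested cardiomyocyte markers, of 18 listed, summed to 81969 to 93173 CPM at P1, 78056 to 90387 at P3, 70227 to 78736 at P7 and 79171 to 92900 at P28, so that P7 and P28 did not overlap. Between P7 and P28, 4 of the 8 were called as higher and 1 as lower, against 11.1% and 14% of all genes. The higher ones were the sarcomere genes MYBPC3, TNNI3 and TNNC1, which also passed an adjusted p under 0.05, and the natriuretic peptide gene NPPB (log2 fold change 2.86, edgeR adjusted p = 0.0770). The lower one was ACTC1, the cardiac actin gene (log2 fold change -0.50, edgeR adjusted p = 0.0600). The 6 tested leukocyte markers, of 12 listed, summed to 1426 to 1691 CPM at P1, 1442 to 1958 at P3, 1271 to 1373 at P7 and 2114 to 2572 at P28. All 6 of them (CD14, CSF1R, CD74, C1QA, C1QB and C1QC) were called as higher at P28 than at P7, as 11.1% of all genes were. The 2 tested fibroblast markers, of 10 listed, FBN1 and TCF21, summed to 3636 to 4040 CPM at P1, 1916 to 2816 at P3, 3665 to 4233 at P7 and 972 to 1214 at P28. The 2 tested skeletal muscle markers, of 7 listed, consist almost wholly of CKM, the muscle creatine kinase that the heart also makes. They summed to 3554 to 4840 CPM at P1, 2561 to 8393 at P3, 3540 to 5578 at P7 and 10979 to 12979 at P28. The 3 tested endothelial markers, of 11 listed, summed to 542 to 750.2 CPM at P1, P3 and P7 and to 576 to 629 at P28. Over the 4 ages 2 of the 3 passed an adjusted p under 0.05, as 21.4% of all genes did. Between P3 and P28 they moved in opposite directions. TEK was called as higher (log2 fold change 0.83, edgeR adjusted p = 0.00430), against 10.3% of all genes. TIE1 (-0.81, edgeR adjusted p = 0.0151) and CDH5 (-0.61, edgeR adjusted p = 0.126) were called as lower, against 13.7%. TIE1 was also lower at P28 than at P7 (log2 fold change -0.71, edgeR adjusted p = 0.0236). The adipocyte marker LIPE, the only one tested of 6 listed, was at 37.9 to 62.5 CPM at P28, within its 32.0 to 88.6 at P3. This was above its 21.0 to 30.1 at P1 (22.5% of all genes) and its 29.3 to 33.2 at P7 (23.7% of all genes). LIPE was called as higher at P28 than at P1 (log2 fold change 0.93, edgeR adjusted p = 0.0781). The smooth muscle marker NOTCH3, the only one tested of 8 listed, was at 87.1 to 204 CPM at P28 and 154 to 590 CPM at the other ages, and no erythroid marker was in the part of the table analysed. The part of these cell types in the levels of JUNB, EGR1 and the JUN row was not tested.

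The members differed in how far pigs of one age spread. For each gene, the SD of log2 CPM between pigs of one age was pooled over the 4 ages, and the median over all 5526 genes was 0.27. FOSB had an SD of 1.53, larger than that of 99.7% of all genes. The SDs of the others were 0.28 for JUNB (52.3% of genes lower), 0.40 for EGR1 (72.2%) and 0.43 for the JUN row (76.1%). Low counts alone raise this SD, so the dispersion of edgeR, which sets counting error aside, was compared with that of genes of like abundance. FOSB had 7.53 times the dispersion of the trend, and 99.6% of genes had a lower ratio. For JUNB the ratio was 0.914, for EGR1 1.53 and for the JUN row 2.29. The biological coefficient of variation was 85.2% for FOSB, 19.4% for JUNB, 25.0% for EGR1 and 25.3% for the JUN row.

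**Figure D3:**
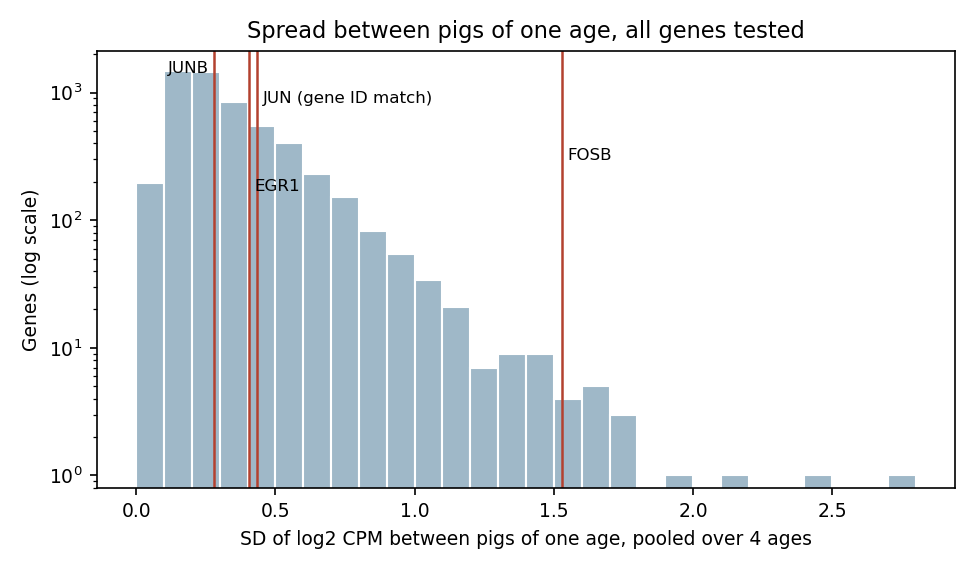
Number of genes (vertical axis, log scale) by the SD of log2 CPM between pigs of one age, pooled over 4 ages (horizontal axis), for the 5526 genes tested. Red lines mark JUNB at 0.28, EGR1 at 0.40, the row matched to JUN at 0.43 and FOSB at 1.53, far to the right of most genes.

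Depth and makeup were set beside FOSB in the 4 libraries with the highest FOSB of their age. Their total counts ran from 12024443 to 12846347, within the range of 8887176 to 14883849 of the other 8 libraries. Metazoa_SRP took 12.0% to 19.7% of their counts, against 7.09% to 19.5% in the others, and protein coding genes 75.2% to 80.9%, against 74.9% to 87.2%. Within P7, the high FOSB library, pig 6, stood apart in makeup, with 19.7% of its counts on Metazoa_SRP, the highest of all 12 libraries, against 12.2% and 7.09% in pigs 4 and 5. At P28 the high library also had the highest share of its age (12.0% against 7.88% and 11.4%), whereas at P1 it had the lowest (12.9% against 19.5% and 14.1%) and at P3 the middle one (13.9% against 13.6% and 16.2%). The part of these measures in the spread of FOSB was not tested.

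EGR1 was highest in the same library as FOSB at each of the 4 ages, but at P1 by a near tie that these data cannot decide, with 34.43 CPM in pig 6 (418 counts) and 34.33 CPM in pig 4 (460 counts). This was seen after the values were known and is a description only. Of the 5525 other genes tested, 1.18% had their highest library in common with FOSB at all 4 ages and 10.5% at 3 or 4 of them. JUNB shared it at 1 age and the JUN row at 2. Of the 25 other immediate early genes tested, 2 shared it at 3 ages, namely the nuclear receptor NR4A3 and TIPARP, a target of the aryl hydrocarbon receptor, and 0 at all 4.

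Covariation was computed for the 6 pairs of the 4 genes over the 12 libraries, on log2 CPM. For FOSB and EGR1, Pearson's r over all libraries was 0.713 (permutation p = 0.0126, adjusted over 6 pairs 0.0318) and Spearman's rho 0.699 (permutation p = 0.0143, adjusted 0.0355). Without the 2 libraries farthest from the median of FOSB, r was 0.647. These values include the differences between ages. The permutation over all libraries moved them across ages, so its p-values, here and for the other pairs, do not measure covariation between pigs of one age. With each age set to its own mean, r was 0.753, and an exact permutation test over the 1296 arrangements within ages gave p = 0.0394 (adjusted 0.236). Spearman's rho was then 0.615 (exact permutation p = 0.114, adjusted 0.480), and r without the 2 most extreme libraries, pig 6 of P3 and of P7, was 0.522. The relation within ages thus failed the correction for 6 pairs, and it was weaker without these libraries. For JUNB and EGR1, r over all libraries, differences between ages included, was higher, at 0.837 (permutation p = 0.00120, adjusted 0.00720), rho was 0.867 (permutation p = 5.20e-04, adjusted 0.00312), and r without the 2 libraries farthest from the median of JUNB was 0.765. For JUNB and FOSB, r was 0.576 (permutation p = 0.0524, adjusted 0.0629), rho was 0.650 (permutation p = 0.0253, adjusted 0.0379), and r without those 2 libraries was 0.582. For the JUN row, r over all libraries was 0.683 with EGR1 (permutation p = 0.0159, adjusted 0.0318), with rho 0.678 (permutation p = 0.0178, adjusted 0.0355) and r 0.778 without the 2 libraries farthest from the median of EGR1. It was 0.646 with JUNB (permutation p = 0.0246, adjusted 0.0369), but rho was 0.531 (permutation p = 0.0796, adjusted 0.0955) and r without 2 libraries of P28 was 0.379, so that the relation rests on these. With FOSB it was 0.507 (permutation p = 0.0941, adjusted 0.0941), with rho 0.490 (permutation p = 0.110, adjusted 0.110) and r 0.365 without the 2 libraries farthest from the median of FOSB. The P28 libraries lay above all others in JUNB and in the JUN row, so these values carry that difference between ages. Within ages, r was 0.480 for JUNB and EGR1 (exact permutation p = 0.194), 0.259 for JUNB and FOSB (exact permutation p = 0.494) and -0.0124 for JUNB and the JUN row (exact permutation p = 0.977). It was 0.568 for EGR1 and the JUN row (exact permutation p = 0.350) and 0.320 for FOSB and the JUN row (exact permutation p = 0.552).

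**Figure D4:**
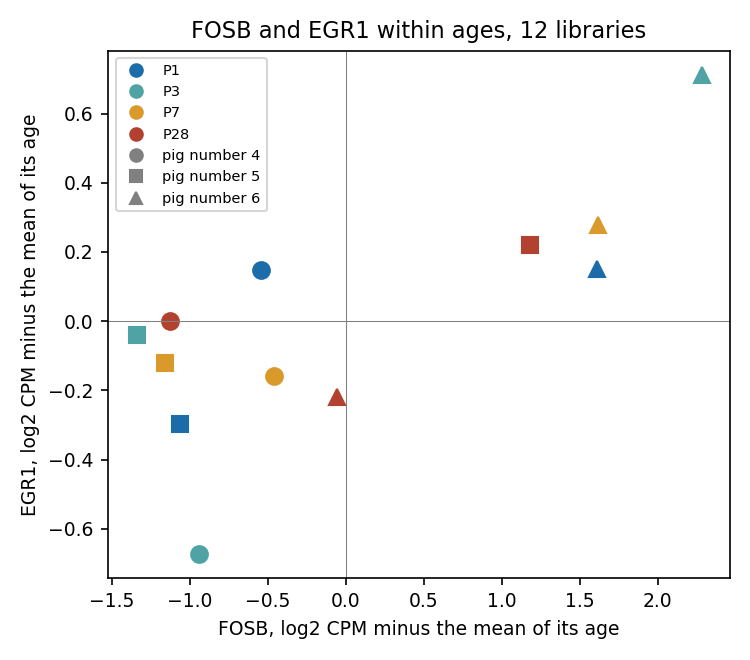
Level of EGR1 (vertical axis) against that of FOSB (horizontal axis) in the 12 libraries, each as log2 CPM minus the mean of its age, with color giving the age and shape the pig number. The 4 libraries at the right, the highest FOSB of each age, all lie above the age mean of EGR1 (r = 0.753 within ages).

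The genes whose levels ran most like those of each member over the 12 libraries were taken by Pearson's r of log2 CPM, which includes the differences between ages and is given without a test. The libraries share their depth and composition. For JUNB they were PSMC3 (r = 0.966), a proteasome ATPase, NFKBIB (0.951), an inhibitor of NF-kappa-B, ZNF106 (0.945), OSBPL11 (0.942) and ZFAND5 (0.930). For EGR1 they were TNNI3 (0.892), the cardiac troponin I gene, DNAAF3 (0.890), MPND (0.887), SYVN1 (0.881), a ubiquitin ligase of the endoplasmic reticulum, and ADAMTS1 (0.88), a secreted protease. For FOSB they were LDHB (0.790), RPS16 (0.786), WDR74 (0.769), a copy of the U2 snRNA (0.769) and RPL29 (0.75), with lower values than for the other genes. For the row matched to JUN they were ZFP36 (0.948), MACROD1 (0.947), LRIG1 (0.922), IL34 (0.922) and CKM (0.918). With each age set to its own mean, r was 0.918 for JUNB with PSMC3, 0.513 for EGR1 with TNNI3, 0.780 for FOSB with LDHB and 0.909 for the JUN row with ZFP36.

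Few other AP-1 genes could be followed. Of 16 further AP-1 family genes listed, 3 were in the table. FOSL1, a FOS relative, had at most 20 counts in a library and was not tested. BATF2, an interferon-inducible leucine zipper protein, differed over the 4 ages (edgeR adjusted p = 0.00200), whereas MAF, a large leucine zipper factor, did not pass (edgeR adjusted p = 0.702). The mean level of BATF2 was 1.25 CPM at P1, 1.53 at P3, 0.835 at P7 and 5.94 at P28, with 8 to 72 counts per library. All 3 P28 pigs lay above all 3 P7 pigs, as was the case for 23.7% of all genes. It was higher at P28 than at P7 by 2.81 on the log2 scale (SE 0.44, edgeR adjusted p = 0.00144). None of the 5 listed EGR relatives and their corepressors was in the part of the table analysed.

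Among other immediate early genes, 26 of 65 listed were in the table and 25 were tested, since IER2 had at most 3 counts. Over the 4 ages 4 of the 25 passed an adjusted p under 0.05, against 21.4% of all genes. Between P7 and P28, 10 were called as higher and 1 as lower, and 5 of the 10 passed an adjusted p under 0.05, whereas of all genes 11.1% were called as higher, 14% as lower and 18.8% passed in either direction when adjusted. The median log2 fold change of the 25 was 0.49, and that of all genes 0.01. The list was chosen with earlier results of these data known, so its comparisons with all genes are a description only. From P1 to P7 none was called as higher and 5 as lower, against 7.65% and 4.07% of all genes, with a median of -0.40 beside -0.01 for all genes. In the other comparisons the higher and lower calls are given with the shares of all genes called in each direction. They were 0 and 2 of 25 between P1 and P3 (6.95% and 3.64%), 3 and 3 between P1 and P28 (11% and 12.1%) and 1 and 1 between P3 and P7 (6.51% and 6.46%). They were 4 and 2 between P3 and P28 (10.3% and 13.7%) and 0 and 1 for P1 against the later mean (4.89% and 4.52%). Between P1 and P28 and between P3 and P7 the list was thus near or below the share of all genes. The 10 genes higher at P28 than at P7 were NR4A3, KLF2, ZFP36, CSRNP1, SIK1, PPP1R15A, ERRFI1, CITED2, AMOTL2 and BHLHE40, and the lower one was GADD45A, a DNA damage response gene.

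NR4A3, an orphan nuclear receptor, spanned the widest range of levels among those that passed over the 4 ages (edgeR adjusted p = 3.72e-04). At P1, the levels of NR4A3 in pigs 4, 5 and 6 were 142, 53.1 and 108 CPM, and at P3 they were 18.7, 28.5 and 55.6 CPM. At P7 they were 22.5, 21.5 and 42.4 CPM, and at P28 they were 342, 864 and 517 CPM. Every P28 pig was thus far above every younger pig, and 8.52% of all genes had all 3 P28 libraries above the 9 others. All P1 pigs but pig 5 were above all P3 and P7 pigs. NR4A3 rose by 4.32 on the log2 scale from P7 to P28 (SE 0.51, edgeR adjusted p = 3.41e-04), 20.0-fold, and by 2.51 from P1 to P28 (SE 0.47, edgeR adjusted p = 0.00452). From P1 to P3 it fell by 1.55 on the log2 scale (edgeR adjusted p = 0.196), and from P1 to P7 it fell by 1.81 (edgeR adjusted p = 0.0639).

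The other genes that passed over the 4 ages were ZFP36, CSRNP1 and ID3. ZFP36, which binds AU-rich elements and speeds the decay of short-lived mRNAs, had means of 54.6, 62.5, 49.8 and 98.5 CPM at P1, P3, P7 and P28. It rose by 0.99 on the log2 scale from P7 to P28 (SE 0.18, edgeR adjusted p = 0.00280). CSRNP1, a nuclear protein, had means of 19.1, 15.3, 11.2 and 28.0 CPM and rose by 1.32 (SE 0.24, edgeR adjusted p = 0.00283), so that its order of ages matched that of JUNB. ID3, an inhibitor of basic helix-loop-helix factors, ran differently. Its means were 185, 124, 112 and 127 CPM, and it was lower at the later ages than at P1 by a log2 fold change of -0.61 (SE 0.10, edgeR adjusted p = 0.00813).

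**Figure D5:**
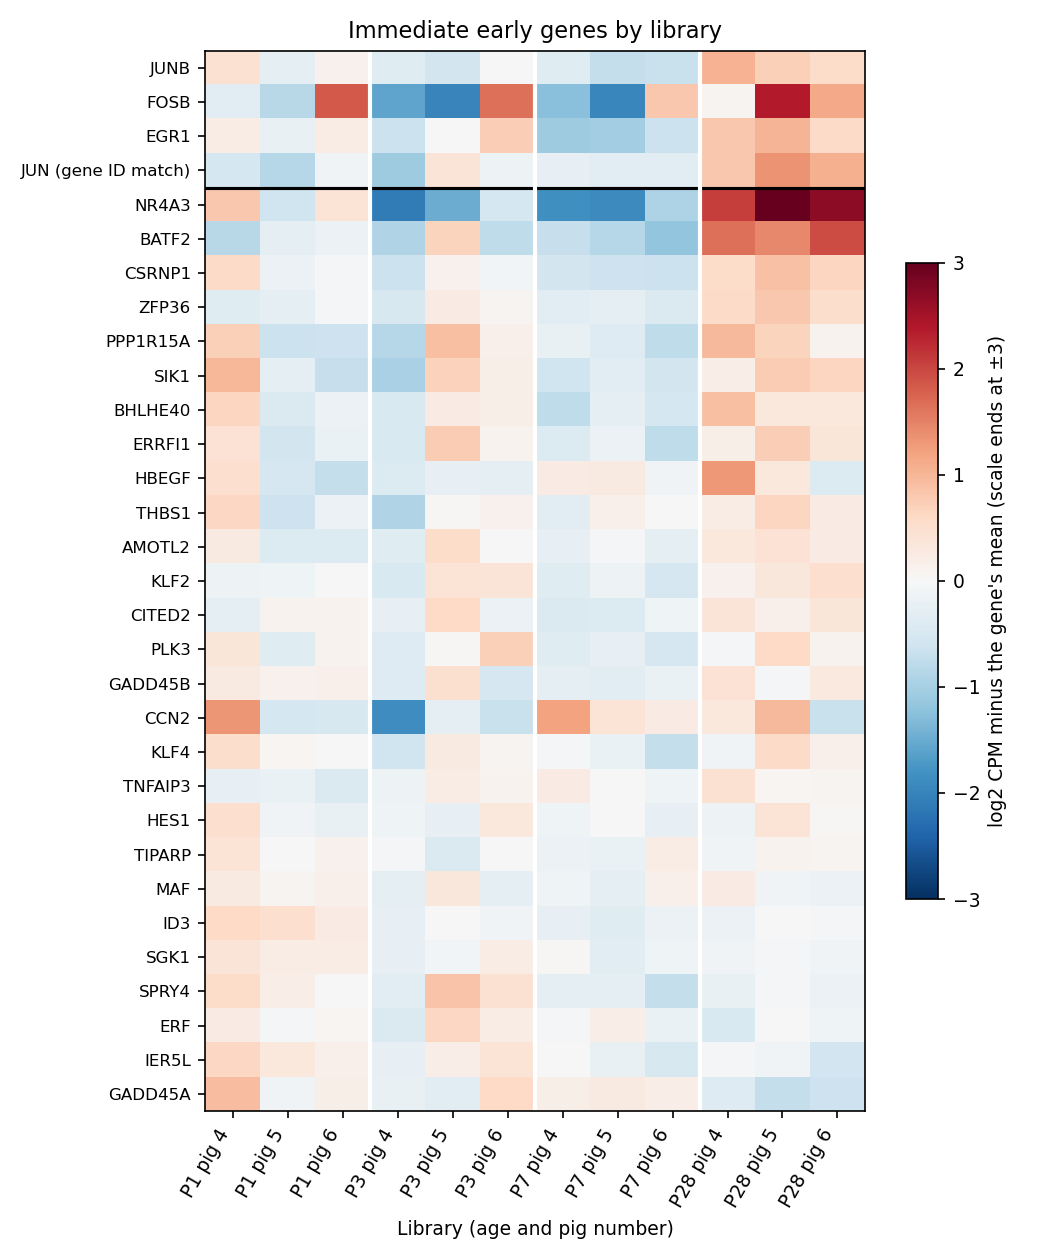
Log2 CPM minus the mean of the gene over 12 libraries (color, from -3 to 3) for the members and the row matched to JUN above the black line, and for the other AP-1 and immediate early genes tested below it, with libraries in columns by age and pig number. NR4A3 and BATF2 show the strongest rise at P28, and FOSB is uneven within each age.

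The signalling genes upstream of the members were followed in the same way. Of 29 kinases, serum response factor genes and other upstream regulators listed, 7 were tested. None of the 7 passed an adjusted p under 0.05 over the 4 ages by edgeR's test, while 2 had an unadjusted p under 0.05. RPS6KA4, the kinase MSK2, which phosphorylates histone H3 at immediate early genes, came closest (edgeR adjusted p = 0.0508). Between P3 and P28 2 of the 7 were called as lower, against 13.7% of all genes, namely RPS6KA2 (log2 fold change -0.71, edgeR adjusted p = 0.148) and RPS6KA4 (-0.59, edgeR adjusted p = 0.0219). Between P1 and P3 CRTC1 was called as higher (0.68, edgeR adjusted p = 0.241), 1 of 7 against 6.95% of all genes, and between P3 and P7 MAP2K2 as lower (-0.53, edgeR adjusted p = 0.122), 1 of 7 against 6.46%. In the other comparisons none of the 7 was called, P7 against P28 included, where 25.1% of all genes were. Of 16 heat shock genes listed, 1 was tested, the heat shock factor HSF2, and it was called in none of the comparisons.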

How the data were processed

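Total RNA of 12 pig hearts (batch cd, 3 pigs at each of P1, P3, P7 and P28) was depleted of rRNA and made into stranded libraries, per the paper's methods. The values are whole read counts for each gene, which the authors deposited as raw counts. The aligner, build, annotation and strand setting of this table are not given in the sources used here, since the submitters' processing notes list STAR 2.7.9a, MultiQC 1.11 and Sscrofa10.2 without naming a file. Removal of duplicate reads is not mentioned, so a molecule may be counted more than once. The last line of the table, inside chromosome 2, has no counts and was left out. Columns were placed by age. Their pig numbers match no sample number in the labels and were not used to pair libraries in the main fit. Symbols came from the table, or for 283 genes from a gene name table.

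Genes with 10 or more counts in 3 or more of the 12 libraries entered edgeR 4.0.16 (quasi-likelihood test, TMM factors, all 4 ages in 1 fit, R 4.3.3), and p-values were adjusted over 5526 genes. Log2 CPM for spreads and correlations used a prior count of 2. Alternatives used DESeq2 1.42.0, limma 3.58.1 (voom), other scalings, no filter, only the ages compared, the pig number as a block and each library left out. The tests were tested on simulated counts with known changes. Plots were drawn with matplotlib 3.10.9 in Python 3.11.15. With 8887176 to 14883849 counts per library in the part of the table analysed, precision is limited for genes with few counts, mainly FOSB.

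The members, the gene lists and the marker lists were chosen with earlier results of these data known. Named genes are the members, the listed genes with an adjusted p under 0.05 over the 4 ages (at most 6 a list, those with the smallest p) and the 5 genes with the highest r to each member. The genes called between P7 and P28, the upstream signalling genes, TIPARP, single markers and genes left untested were named after their values were seen. The small RNA and circRNA counts were not used here.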

Additional observations from a re-analysis of the deposited data

How the results depend on the processing

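Of the log2 fold changes under the alternatives, 492 kept their direction and their side of the calling rule, 16 changed sign, 9 newly met the rule and 11 no longer met it. The adjusted p over the 4 ages stayed on its side of 0.05 for each gene and alternative. With limma voom, EGR1 was at -0.017 between P1 and P3. With only the 2 ages compared, 1 member was called between P3 and P28, since EGR1 was lost (edgeR adjusted p = 0.233), and P1 against the later mean was not run. At an adjusted p under 0.05, 0 members passed between P1 and P7, P1 and P28 or P3 and P7, and 1 between P3 and P28. Counting the JUN row as a further gene, chosen after seeing the data, gave 1 call for P1 against the later mean. Without the filter on low counts, FOSB met the rule between P7 and P28 (1.88, edgeR adjusted p = 0.209). The cause was not tested.

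The pig number of a column was not used to pair the samples in the main fit, since the pigs of different ages differ. With each age set to its own mean, 5 of 18 same-number pairs of libraries correlated above 0.1 (from -0.186 to 0.331). Of 12 libraries, 6 correlated best with their own number. These values were not compared with those of unrelated libraries, so they cannot decide whether libraries of the same number share structure. Pig 6 had the highest FOSB at P1, P3 and P7. With the number as a replicate block, FOSB met the calling rule between P3 and P28 (2.10, edgeR adjusted p = 0.109) and between P7 and P28 (2.55, edgeR adjusted p = 0.0571), so that 3 members in place of 2 were called in each. The block changed no other call of a member, and over all genes it moved the calls from 1387 to 1404 between P7 and P28.

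With each library left out in turn, the number of members called ranged from 0 to 2 (P1 versus P3), 2 to 2 (P1 versus P7), 0 to 2 (P1 versus P28), 1 to 1 (P3 versus P7), 1 to 3 (P3 versus P28), 2 to 3 (P7 versus P28) and 0 to 0 (P1 versus the later mean). Log2 fold changes that changed sign ranged, for FOSB, from -2.69 to 0.95 (P1 versus P3), -2.51 to 0.23 (P1 versus P7), -0.026 to 2.12 (P1 versus P28), -0.99 to 1.10 (P1 versus the later mean) and -2.13 to 1.60 (P3 versus P7). For EGR1 they ranged from -0.36 to 0.33 (P1 versus P3) and -0.22 to 0.012 (P1 versus the later mean), and for JUNB from -0.34 to 0.037 (P1 versus the later mean). For the JUN row they ranged from -0.073 to 0.60 (P1 versus P3), -0.022 to 0.35 (P1 versus P7) and -0.47 to 0.22 (P3 versus P7). Within-age r ranged from -0.0867 to 0.457 for JUNB and FOSB, -0.263 to 0.348 for JUNB and the JUN row and -0.00811 to 0.799 for EGR1 and the JUN row. The other pairs kept their sign, with 0.211 to 0.592 for JUNB and EGR1, 0.512 to 0.831 for FOSB and EGR1 and 0.174 to 0.822 for FOSB and the JUN row. With all libraries in, none of these fold changes met the rule. None of these correlations then had an adjusted p under 0.05 by the exact permutation test.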
